A study of Mus musculus with 6 samples.

Results

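The genes described here are 9 markers of the fetal intestinal epithelium and of YAP activity, *Ly6a*, *Anxa1*, *Anxa3*, *Clu*, *Gja1*, *Spp1*, *Ctgf*, *Cyr61* and *Yap1*. They were chosen by symbol, for what is known of them, from the 23366 genes counted in each library. Earlier results of these data were known when they were chosen. RNA of EpCAM-positive epithelial cells from the small intestine of E13.5 mouse embryos was compared between 3 wild type libraries and 3 mutant libraries, and each library was made from 500 sorted cells with 15 cycles of amplification. The mutant genotype was Shh-cre-egfp:Tcf7l1 lox/lox. In it, a Cre-EGFP fusion expressed from the *Shh* locus deletes a loxP-flanked exon of *Tcf7l1*, the gene of a WNT pathway transcription factor of the TCF family, so that deletion is limited to cells with a history of *Shh* expression, and the mutants also carry a Cre insertion at *Shh* itself. The controls were labelled wild type and neither group was treated. Whether the controls carried the floxed or the Cre allele was not given in the sources used here. The question addressed here is whether the loss of *Tcf7l1* went with a change of these 9 genes in the embryonic epithelium.

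YAP1 and its paralogue TAZ (gene *Wwtr1*) are transcriptional coactivators. The Hippo kinases MST1/2 and LATS1/2 hold them in the cytoplasm, and in the nucleus they act through the TEAD DNA-binding proteins. *Ctgf* and *Cyr61*, which encode secreted CCN matricellular proteins, are the most widely used YAP/TAZ target genes. *Ly6a* (SCA-1), *Anxa1*, *Anxa3*, *Clu*, *Gja1* and *Spp1* are among the genes that mark cultured fetal intestinal spheroids, and several of them return in the adult epithelium during repair after injury, when YAP is active.

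Because TEAD proteins bind the letters CATTCC, the 250 bases before the transcription start were searched on both strands for CATTCC, for the AP-1 letters TGANTCA and for the TCF/LEF letters ANCAAAG. None of these motifs overlapped another in the windows below. RefSeq promoter entries (GRCm38.p6) were found for 5 of the 9 genes, and each of these matched the mm9 genome once. *Ly6a*, *Anxa3*, *Clu* and *Ctgf* had no entry. The windows with a match are shown 5′ to 3′ on the gene's strand with the matching letters in capitals, whole for *Cyr61*, *Yap1* and *Gja1* and as 30 bases around the match for *Anxa1*.
*Cyr61*, chr3:145312950-145313199 (mm9, minus strand): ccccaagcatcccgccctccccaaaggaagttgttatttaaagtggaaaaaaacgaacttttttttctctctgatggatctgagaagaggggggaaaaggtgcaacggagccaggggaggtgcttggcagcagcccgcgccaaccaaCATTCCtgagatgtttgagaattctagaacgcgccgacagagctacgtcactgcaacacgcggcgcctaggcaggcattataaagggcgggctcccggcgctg
*Yap1*, chr9:8004597-8004846 (mm9, minus strand): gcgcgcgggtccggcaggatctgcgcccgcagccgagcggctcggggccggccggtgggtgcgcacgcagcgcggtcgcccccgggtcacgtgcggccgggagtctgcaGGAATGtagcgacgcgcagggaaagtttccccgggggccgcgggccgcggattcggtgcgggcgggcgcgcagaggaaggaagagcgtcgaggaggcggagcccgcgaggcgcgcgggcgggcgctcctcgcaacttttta
*Anxa1*, chr19:20465380-20465409 (mm9, minus strand): actgcactgaacCATTCCtgtgaggaataa
*Gja1*, chr10:56096856-56097105 (mm9, plus strand): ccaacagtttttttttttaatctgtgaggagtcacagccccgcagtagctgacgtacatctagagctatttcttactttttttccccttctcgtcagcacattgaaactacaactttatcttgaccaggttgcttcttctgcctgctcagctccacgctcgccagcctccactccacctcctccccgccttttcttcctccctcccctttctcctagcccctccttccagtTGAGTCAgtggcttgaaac
CATTCC began 103 bases before the RefSeq start of *Cyr61* and 236 bases before that of *Anxa1*. In the mm9 annotation used for gene positions, *Anxa1* starts farther upstream, at 20465434. By that annotation its match lies within the gene and not before it. In *Yap1* the letters lay on the opposite strand, read as GGAATG, 141 bases before the start. TGAGTCA, an AP-1 match, began 19 bases before the start of *Gja1*. The first promoter window of *Spp1* (chr5:104863880-104864129, plus strand) held none of the motifs, and no window of the 5 genes held the TCF/LEF letters. Of 32851 mouse promoters of the same length, 12.6% held the TEAD letters, 6.75% the AP-1 letters and 16% the TCF/LEF letters. A match is a description of the letters only. These data hold no measure of binding.

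The libraries held 18216537 to 20397278 counted reads each. *Tcf7l1* was at 476, 474 and 364 normalized counts in the wild type libraries and at 41.4, 33.0 and 73.0 in the mutants (log2 fold change −3.16, adjusted p = 4.2e-07), and *Shh*, the locus that carries Cre, was lower as well (log2 −1.28, adjusted p = 6.1e-05). Libraries of 1 group differed less from each other than libraries of different groups, and wild type 3 stood somewhat apart from wild type 1 and 2. *Xist* was at 0 in the 3 wild type libraries and at 237 to 451.5 in the mutants, while *Ddx3y*, *Eif2s3y*, *Uty* and *Kdm5d* of the Y chromosome had 0 counts in the mutants. Embryonic sex and genotype therefore cannot be told apart in any comparison below. None of the 9 genes lies on the X or Y chromosome, but whether sex bears on them could not be tested here. Of 12501 genes tested, 2.78% were called higher and 5.83% lower in the mutants. A gene was called when its adjusted p (edgeR quasi-likelihood test, Benjamini-Hochberg) was under 0.01, its log2 fold change was at least 0.5 in size and its mean normalized count was at least 50.

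Of the 9 genes, 8 passed the filter on low counts and were tested. *Ctgf* rose, *Anxa1* and *Anxa3* fell, and the other 5 were not called, so that 3 of 8 were called where 8.62% of all tested genes were. At an adjusted p under 0.01 with no condition on size, *Clu* joined the lower genes, and the same threshold held for 7.61% of all tested genes on the lower side and 7.32% on the higher side (14.9% in all). Without regard to the call, the mutant libraries lay wholly below the wild type libraries for 5 of the 8 tested genes (*Anxa1*, *Anxa3*, *Clu*, *Gja1*, *Yap1*) and wholly above for 1 (*Ctgf*). Among all tested genes, 22.2% lay wholly below and 20.8% wholly above, 43% together. The median log2 fold change was −0.32 over the 8 tested genes and −0.04 over all tested genes. The 9 genes were chosen for their known roles, but with earlier results of these data known. These shares and this median therefore only describe them.

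**Figure D1:**
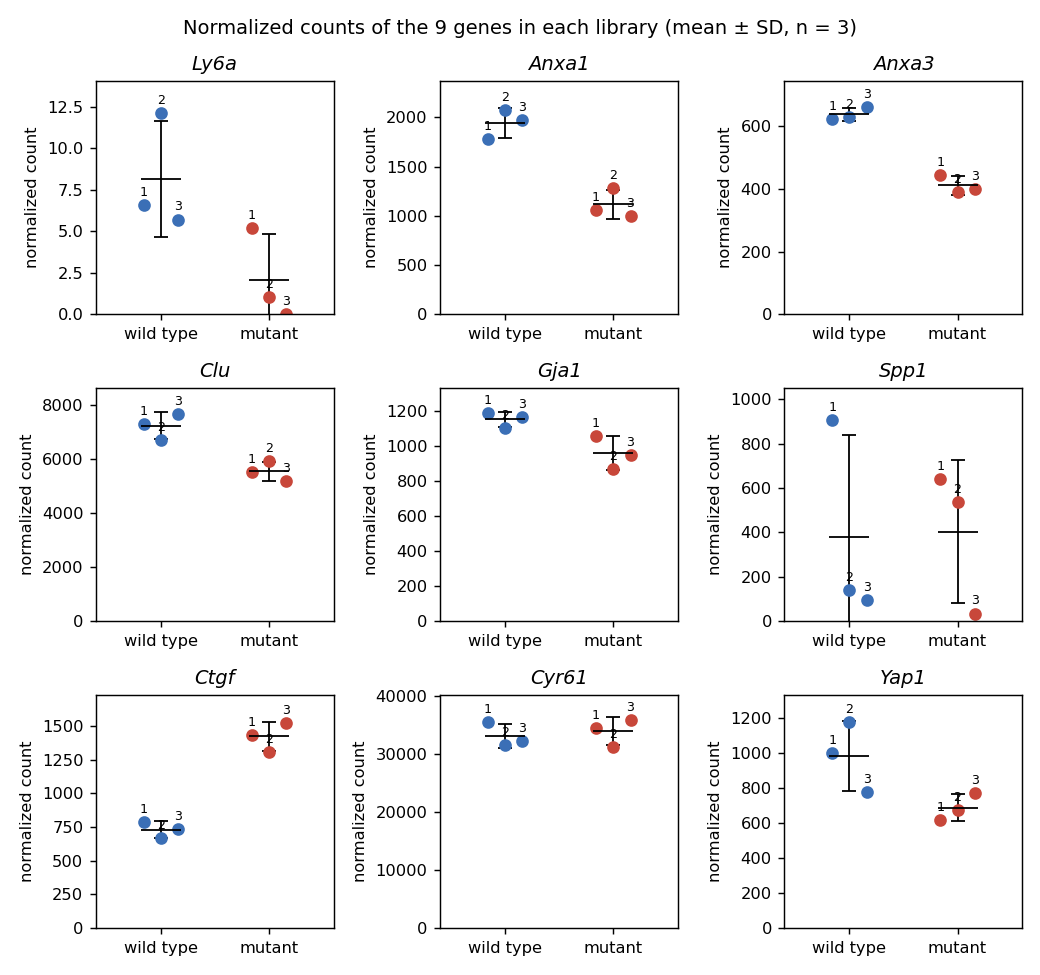
Normalized counts (y axis, from 0) of each of the 9 genes in the 3 wild type (blue) and 3 mutant (red) libraries; numbers are library numbers, and black bars give the mean and SD (n = 3). *Anxa1*, *Anxa3*, *Clu*, *Gja1* and *Yap1* lie lower in all mutant libraries, *Ctgf* lies higher in all of them, and the groups overlap for *Spp1* and *Cyr61*.

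Among the fetal epithelium genes, the pair of annexins, which encode calcium-dependent membrane-binding proteins, were the ones called lower. *Anxa1* (ENSMUSG00000024659, chr19:20447918-20465434, minus strand) had 1780, 2079 and 1978 normalized counts in the wild type libraries and 1060, 1287 and 1003 in the mutants. Every mutant library lay below every wild type library, and the gap between the groups was wider than the spread within either. The mutant mean was 1117 ± 150.3 against 1946 ± 152 (SD, n = 3), or 57.4% of wild type (log2 fold change −0.80 ± 0.11 SE, 95% interval −1.03 to −0.57, adjusted p = 6.6e-05). *Anxa1* encodes an inhibitor of phospholipase A2 pathways that takes part in the resolution of inflammation, and its RefSeq promoter window held the TEAD letters shown above.

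*Anxa3* (ENSMUSG00000029484, chr5:97222404-97274987, plus strand), at 624.5, 628 and 662.5 normalized counts in wild type, was at 445, 389.8 and 399 in the mutants. The groups were again separate, with little spread in the wild type libraries. Wild type averaged 638 ± 20.9 and the mutants 411 ± 29.7 (log2 fold change −0.63 ± 0.13 SE, adjusted p = 0.0022). The call was lost without mutant 2 (log2 −0.60, adjusted p = 0.012) and without mutant 3 (log2 −0.61, adjusted p = 0.011), although the size of the change was kept.

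*Clu* (ENSMUSG00000022037, chr14:66587320-66600385, plus strand) encodes clusterin, a secreted chaperone that marks injury-induced revival stem cells in the adult intestine. Its normalized counts were 7309, 6693 and 7676 in wild type and 5519, 5917 and 5199 in the mutants. The groups did not overlap, and the mutant mean of 5545 ± 359.5 was 76.7% of the wild type mean of 7226 ± 497. The adjusted p was 0.0017, but the log2 fold change of −0.38 (95% interval −0.54 to −0.22) was smaller than the 0.5 that a call required. With all libraries, *Clu* thus differed beyond the replicate spread and was not called for its size. With 1 library left out, the adjusted p was 0.013 without mutant 1, 0.017 without mutant 3 and 0.01 without wild type 1. It stayed under 0.01 in the other such fits, and the log2 value stayed between −0.43 and −0.32.

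*Gja1* (ENSMUSG00000050953, chr10:56097106-56110225, plus strand) encodes the gap junction protein connexin 43. It was at 1187, 1106 and 1166 normalized counts in wild type and at 1060, 868 and 949 in the mutants. Mutant 1 came within 45.4 counts of the lowest wild type library, and the other two mutants lay clearly below. The log2 fold change of −0.27 (95% interval −0.49 to −0.04) did not pass the test (adjusted p = 0.072).

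*Ly6a* (ENSMUSG00000075602, chr15:74825308-74828064, minus strand) encodes SCA-1, a GPI-anchored surface protein and the classical marker of fetal and regenerating epithelium. Its raw counts were 7, 13 and 6 in the wild type libraries and 5, 1 and 0 in the mutants, too few to pass the filter on low counts. All mutant libraries lay below all wild type libraries, by as little as 1 read between wild type 3 and mutant 1. Summed over libraries there were 26 reads in wild type and 6 in the mutants, so that, scaled for library size, the mutant level was 26.2% of wild type (exact 95% interval 8.83 to 65.1%, counting error only). Without mutant 1 that share was 6.66%. In the fit with no filter the log2 fold change was −1.89 with an adjusted p of 0.37, so a difference of *Ly6a* beyond replicate error was not detected at these counts.

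*Spp1* (ENSMUSG00000029304, chr5:104864137-104870069, plus strand) encodes osteopontin, a secreted phosphoprotein that binds integrins and CD44. It was the most variable of the tested genes among the 9. Its normalized counts were 907, 139 and 95 in wild type and 639.9, 536 and 34.3 in the mutants. Wild type 1, mutant 1 and mutant 2 were high and the other 3 libraries were low, so the high and low libraries cut across genotype. The log2 fold change was 0.09 with a 95% interval of −1.45 to 1.63 (adjusted p = 0.94), an interval wide enough to hold a doubling or a halving. Leaving out single libraries moved it between −0.41 and 1.79.

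**Figure D2:**
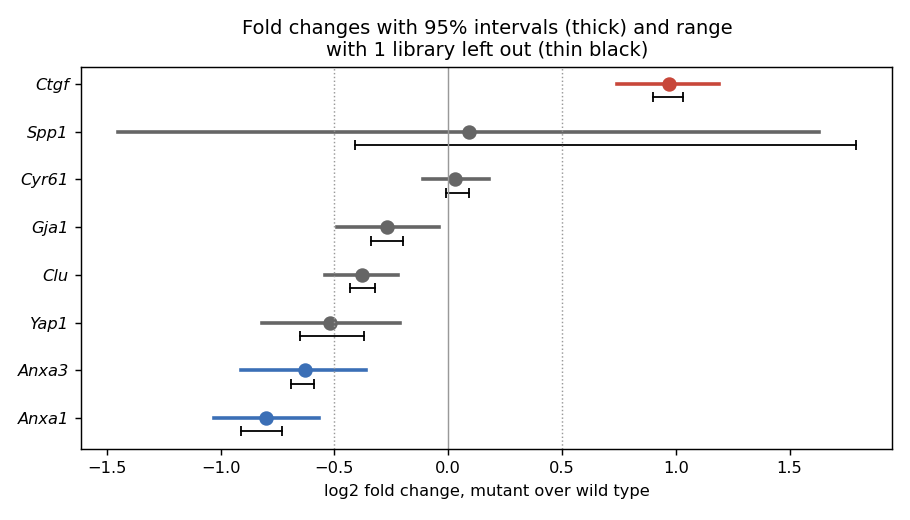
Log2 fold change of mutant over wild type (x axis) for the 8 tested genes, with points for the estimate and thick lines for its 95% interval; thin black lines give the range when 1 library is left out, and dotted lines mark 0.5 in each direction. *Ctgf* (0.97) and *Anxa1* (−0.80) sit farthest from 0 with short intervals, and *Spp1* (0.09) has the longest interval, from −1.45 to 1.63.

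The best known YAP/TAZ targets did not move together. *Ctgf* (ENSMUSG00000019997, chr10:24315248-24318489, plus strand) rose from 789, 665 and 733 normalized counts in wild type to 1435, 1309 and 1525 in the mutants. The lowest mutant library exceeded the highest wild type library by 520.1 counts. The means were 729 ± 62.1 and 1423 ± 109, a 1.95-fold difference (log2 fold change 0.97 ± 0.11 SE, 95% interval 0.74 to 1.19, adjusted p = 1.1e-05), and the log2 value stayed between 0.90 and 1.03 with any library left out. An opposite-strand gene, *Gm15270*, overlaps 570 exon bases of *Ctgf* (22.9%). Whether counting used the strand was not given in the sources used here, so reads from that stretch cannot be assigned to either gene.

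*Cyr61* (ENSMUSG00000028195, chr3:145309935-145312949, minus strand), whose promoter window held the TEAD letters, had 35435, 31411 and 32222 normalized counts in wild type. In the mutants it had 34451, 31151 and 35858. The groups overlapped and their means, 33022 ± 2128 and 33820 ± 2416, differed by less than 1 SD. The log2 fold change was 0.03, and its 95% interval of −0.11 to 0.18 leaves out any change of the size seen for *Ctgf*. Set against *Cyr61* per exon length within each library, *Ctgf* was at 1.81, 1.72 and 1.85% in wild type and at 3.39, 3.42 and 3.47% in the mutants. This ratio was 1.91-fold higher in the mutants (two-sided exact permutation test, p = 0.1, the smallest that 3 against 3 libraries allow; adjusted over 2 ratios, 0.1). The ratio was chosen with the values of both genes known.

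*Yap1* (ENSMUSG00000053110, chr9:7931999-8004596, minus strand), the coactivator itself, was at 1002, 1178 and 779 normalized counts in wild type and at 618, 674 and 774 in the mutants. Wild type 3 and mutant 3 nearly met, so the groups were separated by only 5.02 counts. The gene was not called, at a mean of 689 ± 79.1 against 987 ± 200 (log2 fold change −0.52 ± 0.14 SE, 95% interval −0.82 to −0.21, adjusted p = 0.014). Without wild type 3 the log2 value was −0.65 and the call was made (adjusted p = 0.0017), and other filters on low counts gave adjusted p-values of 0.0026 and 0.0089. *Wwtr1*, which encodes TAZ, was at 72.2, 121 and 144.5 in wild type and 147, 131 and 193.6 in the mutants (log2 0.48, 95% interval −0.10 to 1.06, adjusted p = 0.20). Per exon length, *Yap1* stood at 717, 502 and 278.5% of *Wwtr1* in wild type and at 217, 266 and 206.5% in the mutants (two-sided exact permutation test, p = 0.1, the smallest possible; adjusted over 2 ratios, 0.1). This ratio too was chosen after both values were known. A gene on the opposite strand overlaps 116 exon bases of *Yap1* (1.25%).

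Of the 7 genes for YAP1, TAZ, the 4 TEAD proteins and the TEAD cofactor VGLL4, *Tead2* alone was called, and it was lower. Among all tested genes, 5.83% were called lower and 8.62% in either direction. *Tead2* had 643, 709.5 and 513 normalized counts in wild type and 272, 289.7 and 319 in the mutants. The groups were well apart (log2 fold change −1.08, 95% interval −1.41 to −0.76, adjusted p = 1.3e-04). *Tead1* was at log2 0.14 (adjusted p = 0.62), *Tead3* at −1.16 (adjusted p = 0.064) and *Tead4* at −0.84 (adjusted p = 0.41), the last from at most 46.6 normalized counts in any library. Of 26 Hippo kinases and regulators, 24 were tested and 1 was called, on the lower side, beside the same 5.83% of all tested genes. This was *Frmd6*, which encodes an upstream FERM-domain protein. It had 149, 209 and 142 normalized counts in wild type and 90.1, 53.2 and 75.2 in the mutants (log2 −1.19, adjusted p = 0.0046), a call lost in 4 of the 6 fits with 1 library left out. The kinase genes *Lats1* (log2 0.25, adjusted p = 0.22) and *Lats2* (log2 0.01, adjusted p = 0.99) were not called. The median log2 fold change of the 24 was −0.06, close to that of all tested genes.

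A published signature of 22 YAP/TAZ targets, to which *Ctgf* and *Cyr61* belong, had 20 tested genes, of which 2 were called higher and 2 lower (beside 2.78% and 5.83% of all tested genes). *F3*, which encodes tissue factor, rose more than *Ctgf*, from 2383, 2205 and 2790 normalized counts in wild type to 6588, 6361 and 6061 in the mutants (log2 1.37, 95% interval 1.18 to 1.55, adjusted p = 1.9e-08). *Axl*, a receptor tyrosine kinase gene, fell from 522, 565 and 474 to 241, 308 and 292 (log2 −0.89, adjusted p = 6.5e-04). *Rbms3*, for an RNA-binding protein, was at 201, 130.5 and 143.5 in wild type and at 76.6, 59.6 and 61.9 in the mutants (log2 −1.26, adjusted p = 0.0029), a call lost in 3 of 6 fits with 1 library left out. The signature thus held called genes in both directions, and its median was −0.08.

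*Ankrd1*, a cardiac ankyrin-repeat protein gene often used as a YAP reporter, was at 0, 3.73 and 14.3 normalized counts in wild type and at 49.7, 3.19 and 218 in the mutants. Mutant 3 held most of the counts and mutant 2 was within the wild type range. The log2 fold change was 3.89 (adjusted p = 0.013), 2.12 without mutant 3 (adjusted p = 0.20) and 4.46 without mutant 2, where the gene was called (adjusted p = 0.0014). *Acta2*, a smooth muscle actin gene of the mesenchyme list, was likewise highest in mutant 3 (489, against 69.4 to 171.5 in the other 5 libraries). Other genes of that list went different ways in mutant 3. *Foxf1* was highest there (11.1, against 0 to 10.3 in the other 5 libraries), whereas *Col3a1* was lowest (4.42, against 6.39 to 42.2). The remaining genes of the list lay within the range of the other 5 libraries. Whether cells of another kind in that library bear on *Ankrd1* was not tested. *Amotl2*, an angiomotin family target, was at log2 0.29 (adjusted p = 0.12).

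**Figure D3:**
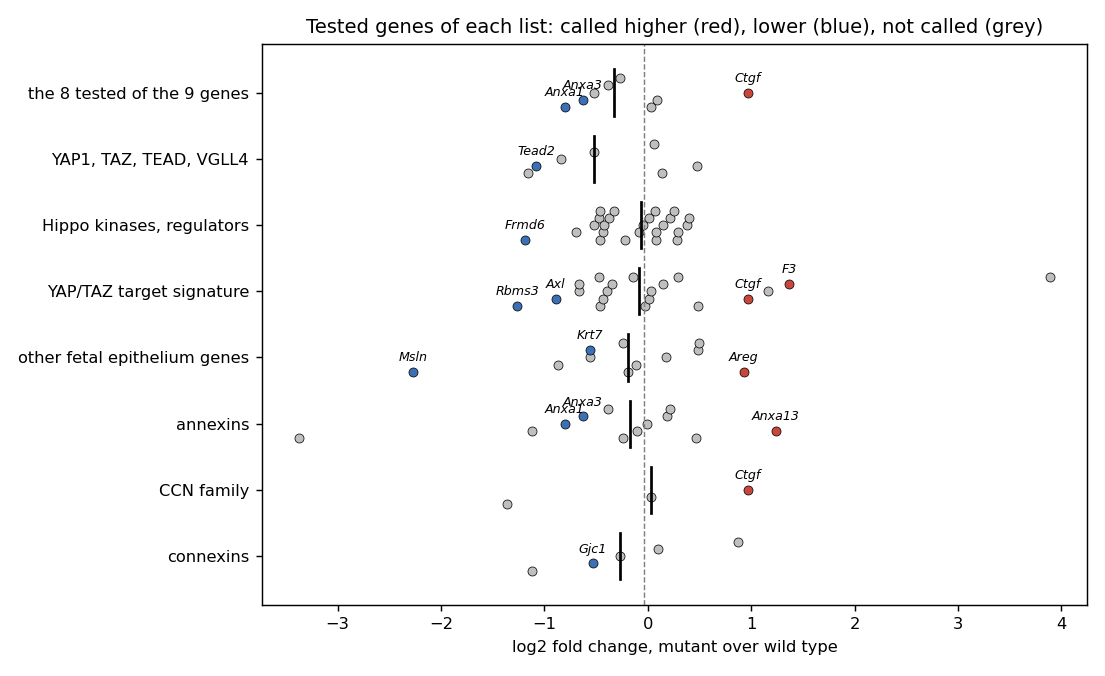
Log2 fold change of mutant over wild type (x axis) of every tested gene of each list (rows), red for genes called higher, blue for genes called lower and grey for the rest; black bars are list medians and the dashed line is the median of all tested genes (−0.04). Called genes lie on both sides of 0 among the YAP/TAZ targets, the other fetal epithelium genes and the annexins.

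Among 12 further genes of fetal spheroid and regenerating epithelium, 11 were tested, 1 was called higher and 2 lower (median log2 −0.19), where 2.78% and 5.83% of all tested genes were. *Areg*, which encodes the EGF receptor ligand amphiregulin, rose from 256, 242 and 259.5 normalized counts to 485, 495 and 465 (log2 0.93, adjusted p = 3.0e-04). *Krt7*, an epithelial keratin gene, fell from 5652, 6336 and 5218 to 3881, 3850 and 3937 (log2 −0.56, adjusted p = 9.5e-05), a call lost on size without wild type 2 (log2 −0.48). *Msln* fell from 385, 340.3 and 218 to 113, 53.2 and 27.7 (log2 −2.27, adjusted p = 3.2e-04). *Msln* encodes mesothelin, a surface protein of the mesothelium as well as of fetal epithelium.

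Gene families around the 9 genes were examined as well. All 12 annexin genes were tested, and 1 was called higher and 2 lower, beside 2.78% and 5.83% of all tested genes. Beside *Anxa1* and *Anxa3*, which were lower, *Anxa13*, an annexin typical of the intestinal epithelium, rose from 651, 689 and 710.0 normalized counts to 1549, 1804 and 1479 (log2 1.24, adjusted p = 7.3e-07). The annexin median was −0.17. *Anxa4* was at log2 0.47 (adjusted p = 2.1e-04), below the size that a call required. *Anxa8* was at log2 −3.37 (adjusted p = 8.3e-04) with 28.1, 98.8 and 64.6 counts in wild type and 5.18, 8.52 and 4.42 in the mutants, below the mean count that a call required. Both are named because they passed the adjusted p without being called.

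Of the 6 CCN genes, 3 were tested, and *Ctgf* was called. Of 20 connexin genes, 5 were tested, and *Gjc1* (connexin 45) was called lower, at 844, 726 and 858 normalized counts in wild type and 557, 576 and 552 in the mutants (log2 −0.53, adjusted p = 0.0043), a call lost in 5 of 6 fits with 1 library left out. Of the Ly6 family, *Ly6e* alone was tested among 9 genes in the files (log2 −0.19, adjusted p = 0.25). No member had a near-identical copy elsewhere in the annotated transcripts. The closest was *Ly6f*, 84.1% identical to *Ly6a*. Over the 70 tested genes of all these lists other than the members, 3 were called higher, 7 lower and 60 neither, beside 2.78% higher and 5.83% lower among all tested genes.

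CPM is the count scaled to a fixed total per library. Levels of different genes were compared only as normalized CPM per kilobase of exon. In wild type, *Cyr61* was by far the highest of the 9 at 834 ± 53.8, place 30 among the 11874 tested genes with a known length. *Clu* followed at 108 ± 7.40, then *Anxa1* at 38.2 ± 2.99, *Anxa3* at 20.5 ± 0.670, *Gja1* at 19.0 ± 0.699, *Ctgf* at 15.0 ± 1.28, *Spp1* at 11.8 ± 14.2, *Yap1* at 5.46 ± 1.11 and *Ly6a* at 0.509 ± 0.218. Neighbours in this order had separate ranges over the 3 libraries, except that *Spp1* overlapped *Ctgf* and *Yap1*. With a range of 2.955 to 28.2, *Spp1* also overlapped *Gja1* and *Anxa3*, so its place in the order is unsettled.

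In the mutants, *Cyr61* (854 ± 61.0) and *Clu* (82.6 ± 5.36) kept the first places. *Ctgf*, at 29.3 ± 2.24, moved from the sixth place to the third, above *Anxa1* at 21.9 ± 2.95, *Gja1* at 15.8 ± 1.59 and *Anxa3* at 13.2 ± 0.951. *Spp1* (12.5 ± 10.1) ran from 1.07 to 19.9 over the 3 libraries, and so overlapped *Anxa1*, *Gja1*, *Anxa3* and *Yap1* (3.81 ± 0.438). Last came *Ly6a* at 0.130 ± 0.171. The SCA-1 gene was thus the least abundant of these transcripts in both genotypes, while *Cyr61* was above 99.7% of the tested genes in the mutants.

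**Figure D4:**
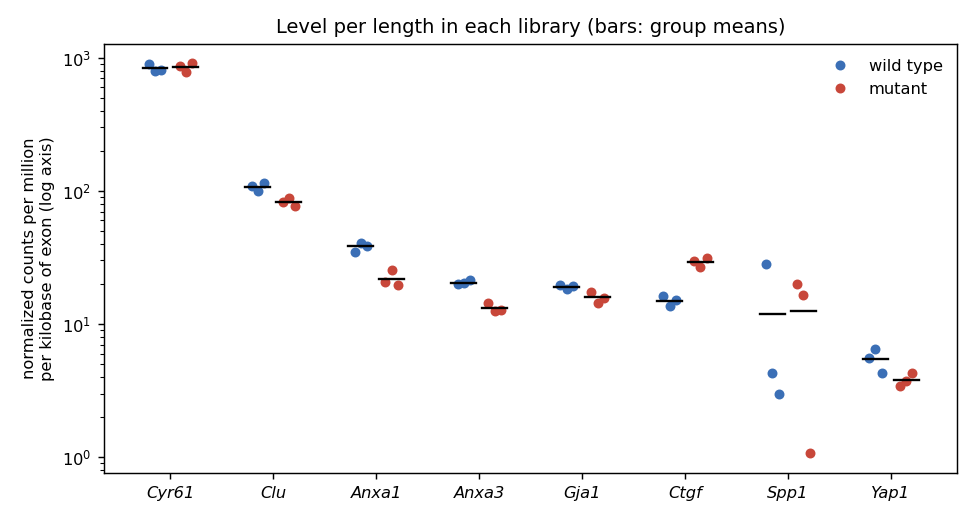
Level per length (y axis, normalized CPM per kilobase of exon, log axis) of 8 of the genes in the 3 wild type (blue) and 3 mutant (red) libraries, with bars at group means; *Ly6a* is left out because 1 library had 0 counts. *Cyr61* stands far above the rest (834 and 854), and *Ctgf* passes *Anxa1*, *Anxa3* and *Gja1* in the mutants.

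The labelled cell type was checked against marker genes. *Epcam*, on which the cells were sorted, was at 47961 to 57037 normalized counts in wild type and 60360 to 64100 in the mutants, and all 10 epithelial markers had counts. Their summed counts were 165326 to 176038 in wild type against 157526 to 161469 in the mutants, and 5 of them (*Cdh1*, *Krt18*, *Cldn6*, *Cdx2*, *Shh*) were called lower in the mutants, where 5.83% of all tested genes were. Among these, *Shh* is also the locus that carries Cre in the mutants, and whether the insertion bears on its level was not tested. With 1 library left out, *Cdx2* lost its call in 4 of 6 fits and *Cdh1* and *Krt18* in 2 of 6 each. On the same list, *Cldn7* was at log2 0.24 (adjusted p = 0.0091), with all mutant libraries higher, and *Vil1* at −0.06 (adjusted p = 0.68). *Krt19* (log2 −0.49, adjusted p = 2.8e-05) and *Krt8* (log2 −0.32, adjusted p = 0.001) were lower in all mutant libraries but below the size for a call. Of the 10 markers, 7 lay wholly below wild type and 2 wholly above, beside 22.2% and 20.8% of all tested genes. The part of the epithelial markers in the values of the 9 genes was not tested. In bulk RNA, fewer cells with a transcript and less transcript per cell cannot be told apart.

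Markers of other cells were checked by their summed normalized counts. All 10 mesenchyme markers had a count, with wild type sums of 1328 to 1603 and mutant sums of 1044 to 1478, mostly from *Vim*, whereas *Col1a1* was at 16.9 or less and *Acta2* reached 489 in mutant 3. The 6 mesothelium markers summed to 26146 to 27007 and 18418 to 19490, nearly all from *Krt19*, an epithelial keratin gene too. *Wt1*, the defining mesothelial gene, was at 0 in 5 libraries and at 3.8 in wild type 3. Of the mesothelium markers, *Msln* and *Upk1b* (log2 −1.14, adjusted p = 0.0065) were called lower and *Upk3b*, at 320.3 to 602.6 normalized counts over the 6 libraries, was not (log2 0.39, adjusted p = 0.12). The call of *Upk1b* was lost in 4 of 6 fits with 1 library left out. Endothelial markers summed to 0 to 12.4 and 0 to 21.7 with *Cdh5*, *Kdr*, *Tek* and *Emcn* at 0, and macrophage markers to 39.4 to 85.8 and 54.2 to 108 with *Ptprc* at 0. Blood markers summed to 22.8 to 34.5 and 5.33 to 10.4 with *Hbb-b1* and *Hba-a1* at 0, and neural crest markers to 207 to 244 and 195 to 278. The part of these cells in the results was not tested.

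The genes whose profile over the 6 libraries was most like that of each member were sought among 10565 tested genes by the root-mean-square difference of mean-centred log2 CPM. For *Ctgf* the nearest were *Rab3b* (0.057), *Klf6* (0.076) and *H2-Q4* (0.080). *Anxa1* was nearest to *Ppfibp2* (0.077), *Anxa3* to *Zfp958* (0.013), *Clu* to *Camk1* (0.024), *Gja1* to *Senp2* (0.034), *Cyr61* to *Sin3a* (0.016) and *Yap1* to *Trappc12* (0.059). None of the nearest genes was another of the 9.

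*Spp1* had no close neighbour. Its nearest genes were *Hhex*, a homeobox gene of the foregut endoderm, liver and pancreas (0.764), *Lifr* (0.969) and *Yod1* (1.057). *Hhex* was at 183, 63.4 and 34.2 normalized counts in wild type and 63.2, 98.0 and 12.2 in the mutants. Wild type 3 and mutant 3 were the lowest of their groups for both *Spp1* and *Hhex*, and wild type 1 was the highest library for both.

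**Figure D5:**
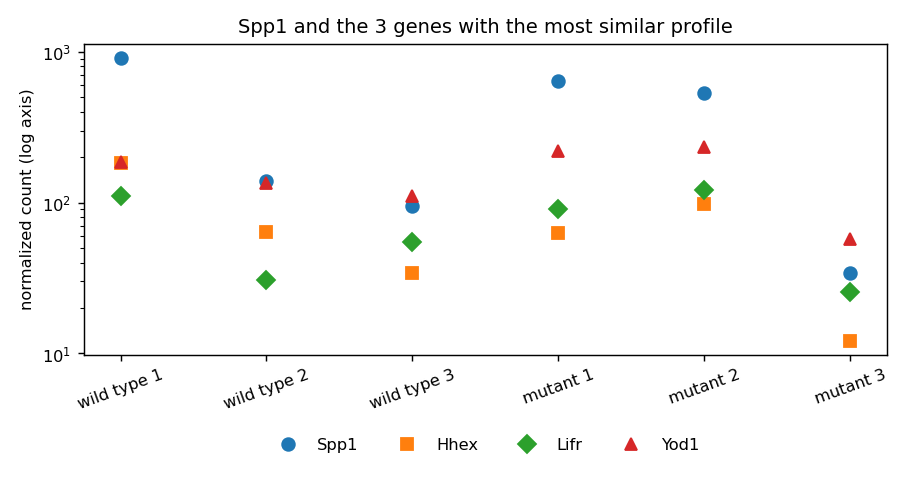
Normalized counts (y axis, log axis) of *Spp1* and of the 3 genes with the most similar profile, *Hhex*, *Lifr* and *Yod1*, in each of the 6 libraries (x axis). *Spp1* runs from 34.3 in mutant 3 to 907 in wild type 1, and mutant 3 is also the lowest library for *Hhex*, *Lifr* and *Yod1*.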

How the data were processed

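The deposited files held raw read counts per gene, 1 file for each library. Per the labels and the study's methods, the authors sorted EpCAM-positive cells, made cDNA from polyA RNA, mapped the reads to mm9 with STAR 2.5.2b and counted unique hits per gene of a UCSC gene model with featureCounts 1.5.1. The strand setting of the counting was not given in the sources used here. PolyA cDNA amplified from few cells makes low counts noisy.

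The counts were tested in edgeR 4.0.16 (R 4.3.3) with TMM scaling, filterByExpr, genotype as the only term and Benjamini-Hochberg adjustment over the 12501 genes tested. Normalized counts are counts scaled to the mean effective library size. Calls needed an adjusted p below 0.01 and a log2 fold change of 0.5 or more in size, as in the study, with a mean of 50 or more normalized counts in place of the study's RPKM of at least 50. Positions and exon lengths came from the mm9 GENCODE annotation, promoter sequences from RefSeq (GRCm38.p6), and copies were sought with BLAST+ 2.17.0. The exact interval for *Ly6a* and the permutation tests used SciPy 1.17.1. Intervals on counts cover counting error only, since the reads carry no molecular identifiers. Nothing in the labels ties libraries to litters, so p-values measure the spread between these libraries.

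All 9 genes were named, with every called gene of the lists, a few set pathway genes, and up to 3 nearest profiles per gene. A gene of the set pathway genes is left out and not reported here. Members and lists were chosen with earlier results of these data known. Alternatives were DESeq2 1.42.0, RLE or library-size scaling, other filters, a gene length correction, a replicate block, other call rules and each library left out. The test was checked on simulated data.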

Additional observations from a re-analysis of the deposited data

How the results depend on the processing

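*Ctgf* (log2 0.90 to 1.03) and *Anxa1* (log2 −0.91 to −0.73) were called in all fits with 1 library left out, and under every other tool, scaling and filter tried. *Anxa3* (log2 −0.69 to −0.59) lost its call without mutant 2 or 3 and kept it in the other fits with 1 library left out. *Yap1* (log2 −0.65 to −0.37) gained one with no filter (−0.52), with a mean raw count of 50 as the filter (−0.53) and without wild type 3 (−0.65). *Spp1* turned sign with library size as the only scale (−0.03), with the gene length correction (−0.07) and without wild type 2 (−0.31), wild type 3 (−0.36), mutant 1 (−0.41) or mutant 2 (−0.17), in a range of −0.41 to 1.79. *Cyr61* did so with library size only (−0.07), the length correction (−0.04) and without wild type 2 (−3.9e-04) or mutant 3 (−0.01). Its range was −0.01 to 0.09 over the fits with 1 library left out, and the ranges of the other genes here cover only those fits too. *Tead4* turned without wild type 2 (3.3e-03, in a range of −1.26 to 3.3e-03), and *Lats2* with library size only (−0.10), the mean count filter (−0.01), the replicate block (−9.3e-04), and without wild type 1 (−0.04), mutant 2 (−0.10) or mutant 3 (−0.01), in a range of −0.10 to 0.13. Of the 9 genes, 0 were called in either direction at a log2 fold change of 1 or more in size or at an RPKM of at least 50 (the study's own level criterion), and 1 to 3 were called lower with 1 library left out. Of the other listed genes, 3 to 5 were called higher with 1 library left out and 5 with no minimum fold change. Called lower were 4 to 8 with 1 library left out, 4 at a log2 fold change of at least 1, 11 at an adjusted p under 0.05 and 0 at an RPKM of at least 50. Except where stated, the causes were not tested. The replicate numbers did not pair the libraries (correlations of deviations 0.00971, −0.0449 and −0.0179, and 1 of 3 wild type libraries correlated best with its own number). The replicate block gave 339 genes higher and 691 lower, against 348 and 729 without it, and changed no call of the 9 genes. With library size as the only scale, 200 genes were higher and 958 lower (17.3% of calls higher, against 32.3%), and the median of all tested genes moved from −0.04 to −0.15. Without wild type 1 the counts were 261 and 405, without wild type 2 they were 260 and 406, without wild type 3, 516 and 867, without mutant 2, 280 and 463. *Ly6a* had the fewest reads of the 9 genes, with at most 13 in a library.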
